A study of Mus musculus with 2 samples.

Results

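Genes of mitosis and the mitotic spindle were examined after knockdown of Mybbp1a in C2C12, an established mouse line of skeletal muscle precursor cells. The members were 46 genes listed by name, taken as every non-control probe that carried one of those names on the arrays, with the brightest tested probe standing for its gene. All 46 genes were measured, out of 18234 genes tested. The knockdown sample was a mixture of stable clones that expressed a short hairpin RNA against Mybbp1a, and the control sample was a mixture of stable clones with a control hairpin, so both carried a hairpin. Both were C2C12 cells, labelled as C3H adult leg muscle, and grew below confluence in serum-rich growth medium. Total RNA of both was hybridised to 2 two-colour arrays, with the knockdown RNA in the Cy5 channel and the control RNA in the Cy3 channel each time. Dyes were never swapped, so a leftover dye bias and the knockdown cannot be told apart. The labels call the 2 arrays biological replicates without saying whether infections, clone mixtures or cultures were separate, so a p-value here covers only how much these samples differed, a spread that may be technical. Each array lay on its own slide, and slide and replicate cannot be told apart either.

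At entry into mitosis, Cdk1 bound to cyclin A or cyclin B phosphorylates its substrates, and polo-like and Aurora kinases drive spindle assembly and chromosome attachment. The spindle checkpoint holds the anaphase promoting complex inactive until all kinetochores are attached, after which securin and cyclin B are degraded, separase opens the cohesin rings and cytokinesis follows. Many of these genes are transcribed mainly in G2 and mitosis through CCAAT boxes and a cell cycle genes homology region (CHR) close to the start site, and they are shut down when myoblasts leave the cell cycle to form myotubes. Mybbp1a itself is a mostly nucleolar protein known to bind Myb and other transcription factors.

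The targeted gene was low in the knockdown channel on both arrays. Mybbp1a had a background-corrected, normalized signal of 2153 and 1721 in knockdown cells, against 6706 and 6476 in control cells, in arbitrary units. Its log2 ratio of knockdown over control was -1.64 on array 1 and -1.91 on array 2, with a mean of -1.78 ± 0.19 (SD, n = 2), which made it 3.42-fold lower (limma, Benjamini-Hochberg adjusted p = 0.175). Only 1 residual degree of freedom was left, and 0 of 18234 genes were called at an adjusted p under 0.05. With 2 arrays, the smallest p of an exact sign-flip test is 0.5.

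With ratios normalized by loess within each array, most mitosis and spindle genes were slightly lower in knockdown cells, whereas with each array centred on its median most were not. Under loess, 37 of the 46 genes (80.4%) were lower on both arrays, against 29.4% of all tested genes, 2 were higher on both, against 40.5%, and 7 had opposite signs. The median log2 ratio of the 46 genes was -0.22 (-0.22 on array 1 and -0.17 on array 2), a change of -14.1%, against 0.03 on each array for all tested genes. The quartiles of the genes' mean ratios were -0.29 and -0.15, and single genes ran between -0.49 and 0.22. The SD between the arrays had a median of 0.10 (log2) over the members.

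None of the 46 genes was called, at 0% of all tested genes (limma, Benjamini-Hochberg adjusted p between 0.182 and 0.989 over the members). At an unadjusted p under 0.05, 12 members were lower (26.1%) and 0 higher, against 7.49% and 13.4% of all tested genes. Those 12 were Smc2, Hmmr, Melk, Ccnb1, Mad2l1, Ube2c, Foxm1, Ect2, Cdc25c, Plk4, Cenpa and Prc1. A decrease of at least 1.2-fold on both arrays was found for 7 members (15.2%), against 4.98% of all tested genes: Smc2, Melk, Ccnb1, Mad2l1, Ube2c, Ect2 and Cdc25c. An increase of that size was found for 0 members, against 10.3%. Bulk RNA gives 1 value for all cells of a sample, so fewer cells in mitosis and less of these RNAs per cell cannot be told apart.

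Centring each array on its median turned the direction. It moved the median of all tested genes by 0.18, to 0.21, and left the members' median at 0.15, with 4 of 46 members (8.7%) lower on both arrays, against 12.3% of all tested genes. Relative to the median of all tested genes the members then stood at -0.06, against -0.25 under loess, and 30 of 46 were below it, against 42 under loess. The members are bright probes, with 35 in the brightest of 4 equal bins of tested genes and 11 in the next one, and under median centring the ratio of all genes grew with brightness. A comparison within these bins, chosen after the data had been seen, placed the members below the other genes under both settings. In the brightest bin their median was -0.22, against -0.0044 for all genes of that bin, under loess, and 0.18, against 0.37, under median centring. In the next bin it was -0.26, against 0.03, under loess, and 0.01, against 0.30, under median centring. Relative to all genes of like brightness, the members stood at -0.21 in the brightest and -0.28 in the next bin under loess, and at -0.18 and -0.29 under median centring. Set against genes of like brightness, the difference had the same direction under both settings. A comparison within bins itself takes out a trend with brightness, as loess does, so this likeness of the settings is not independent support. Of the 46, 41 lay below the median of their own bin under loess and 40 under median centring. Under loess, 27 of the 35 members in the brightest bin (77.1%) were lower on both arrays, against 37.8% of all genes of that bin, and 10 of 11 in the next (90.9%), against 33.9%. At least 1.2-fold lower on both were 6 of 35 (17.1%), against 8.2%, and 1 of 11 (9.09%), against 7.17%.

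**Figure D1:**
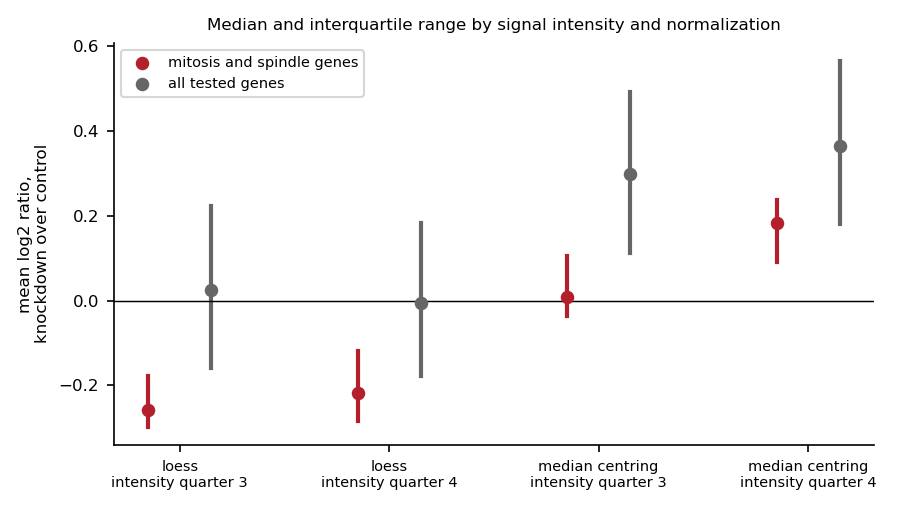
Median (point) and interquartile range (bar) of the mean log2 ratio of knockdown over control, for the mitosis and spindle genes (red) and all tested genes (grey) of the brightest bin of intensity (labelled 4) and the next one (labelled 3). The red points lie below the grey points under both normalizations (-0.22 against -0.0044 and 0.18 against 0.37 in the brightest bin), while their position relative to 0 turns from below to above with median centring.

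**Figure D2:**
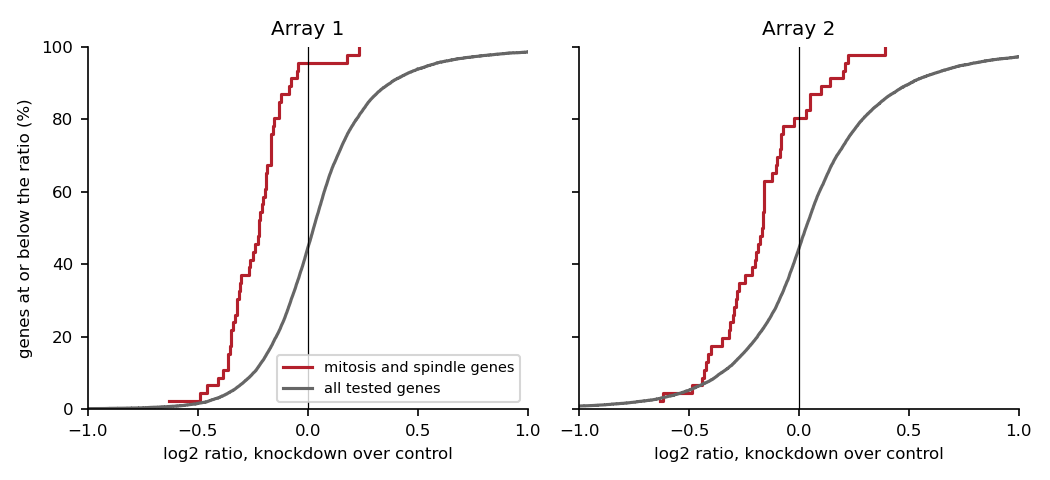
Cumulative share of genes (%) at or below a given log2 ratio of knockdown over control under loess, on array 1 (left) and array 2 (right). At a ratio of 0 the curve of the mitosis and spindle genes (red) has reached 95.7% and 80.4%, against 44.5% and 44.3% for all tested genes (grey). With median centring, only 4 of 46 were lower on both arrays.

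The promoters of these genes share sequence features that the choice of members did not use. RefSeq promoter windows (build GRCm38.p6, 250 bases before to 50 bases after the start site) were found for 38 of the 46 genes. Searched on both strands, CCAAT was present in 30 of 38 windows (78.9%), against 37.9% of the 26987 windows of other genes and 38.4% of the 11460 windows of other tested genes. The CHR, searched as TTTGAA or TTCGAA on both strands, was present in 28 (73.7%), against 19.4% and 14.5%. Both were present in 26 (68.4%), against 7.62% and 5.99%. A CHR within 50 bases of the start site was found in 26 (68.4%), against 5.20% and 3.56%. CCAAT and CHR matches can share at most 1 base, and a match of letters is not a measured binding site.

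Of these windows, 6 are shown as the 120 bases before the start site, chosen after the ratios were known. Ube2c, Cdc20, Bub3 and Cdk1, which the array names Cdc2a, have both motifs and had lower ratios under loess. Under loess, Kif11, with both motifs, had a ratio near 0, and Pttg1, with neither in this window, was higher. Cdca3, which is not shown, has both motifs in its promoter window and had the highest mean ratio of the members under loess. Melk, Mad2l1 and Plk4, not shown either, have neither motif in their promoter windows and were lower on both arrays under loess. With median centring the means were -0.02 for Ube2c, 0.28 for Cdc20, 0.10 for Bub3, 0.17 for Cdk1, 0.27 for Kif11 and 0.69 for Pttg1. The 6 sequences read 5′ to 3′ on the coding strand, with CCAAT (or ATTGG, its reverse complement) and CHR matches in capitals. The positions are chr2:164769809-164769928 (+) for Ube2c, chr4:118437344-118437463 (-) for Cdc20, chr7:131560250-131560369 (+) for Bub3, chr10:69352913-69353032 (-) for Cdk1, chr19:37376262-37376381 (+) for Kif11 and chr11:43425982-43426101 (-) for Pttg1.
Ube2c: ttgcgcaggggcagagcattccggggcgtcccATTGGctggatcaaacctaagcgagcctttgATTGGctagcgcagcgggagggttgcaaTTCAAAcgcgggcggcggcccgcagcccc
Cdc20: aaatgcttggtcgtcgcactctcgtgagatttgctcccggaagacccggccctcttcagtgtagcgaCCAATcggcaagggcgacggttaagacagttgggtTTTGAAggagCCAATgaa
Bub3: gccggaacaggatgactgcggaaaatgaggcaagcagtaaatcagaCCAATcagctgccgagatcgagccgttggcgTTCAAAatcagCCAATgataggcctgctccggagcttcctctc
Cdk1: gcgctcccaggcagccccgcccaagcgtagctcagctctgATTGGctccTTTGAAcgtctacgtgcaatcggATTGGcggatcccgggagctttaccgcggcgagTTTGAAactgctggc
Kif11: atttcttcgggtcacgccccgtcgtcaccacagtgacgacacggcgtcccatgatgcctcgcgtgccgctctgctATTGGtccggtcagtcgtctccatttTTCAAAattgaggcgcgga
Pttg1: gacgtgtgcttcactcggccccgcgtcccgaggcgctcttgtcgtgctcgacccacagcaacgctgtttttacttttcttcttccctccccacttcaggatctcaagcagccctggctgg
In Ube2c the CHR match starts 29 bases before the start site, in Cdc20 18, in Bub3 43 and in Kif11 19, while Cdk1 has matches at 71 and 15 bases. The CCAAT matches lie upstream of a CHR in these windows, at 88 and 57 bases in Ube2c, at 80 and 48 bases in Cdk1 and at 45 bases in Kif11, and on either side of it in Cdc20 (53 and 8 bases) and Bub3 (74 and 32 bases). Under loess, of the 26 genes with both motifs 21 were lower on both arrays (median -0.22), as were all 4 with CCAAT alone (median -0.20). So were both with a CHR alone (median -0.23) and 4 of 6 with neither (median -0.19). Of all 46 members, 80.4% were lower on both arrays under loess, against 29.4% of all tested genes. The medians of these motif groups were close to each other, and no difference between the groups was tested. Counts by motif are not given for median centring. The genes with neither, with their mean ratios under loess, were Birc5 (-0.10), Mad2l1 (-0.39), Melk (-0.43), Nusap1 (0.0064), Plk4 (-0.28) and Pttg1 (0.19). The members with no promoter entry were Ccna2, Aurkb, Cdc25c, Kif20a, Tpx2, Foxm1, Incenp and Smc4.

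The ratios of all 46 genes are described next by role, under loess unless stated, with each group's values under median centring beside them. Of all tested genes, 29.4% were lower on both arrays under loess and 12.3% with median centring, where their median was 0.21. In groups of so few genes, a count of 0 with median centring lies near that share. The plot of the members by role gives both arrays for each gene.

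**Figure D3:**
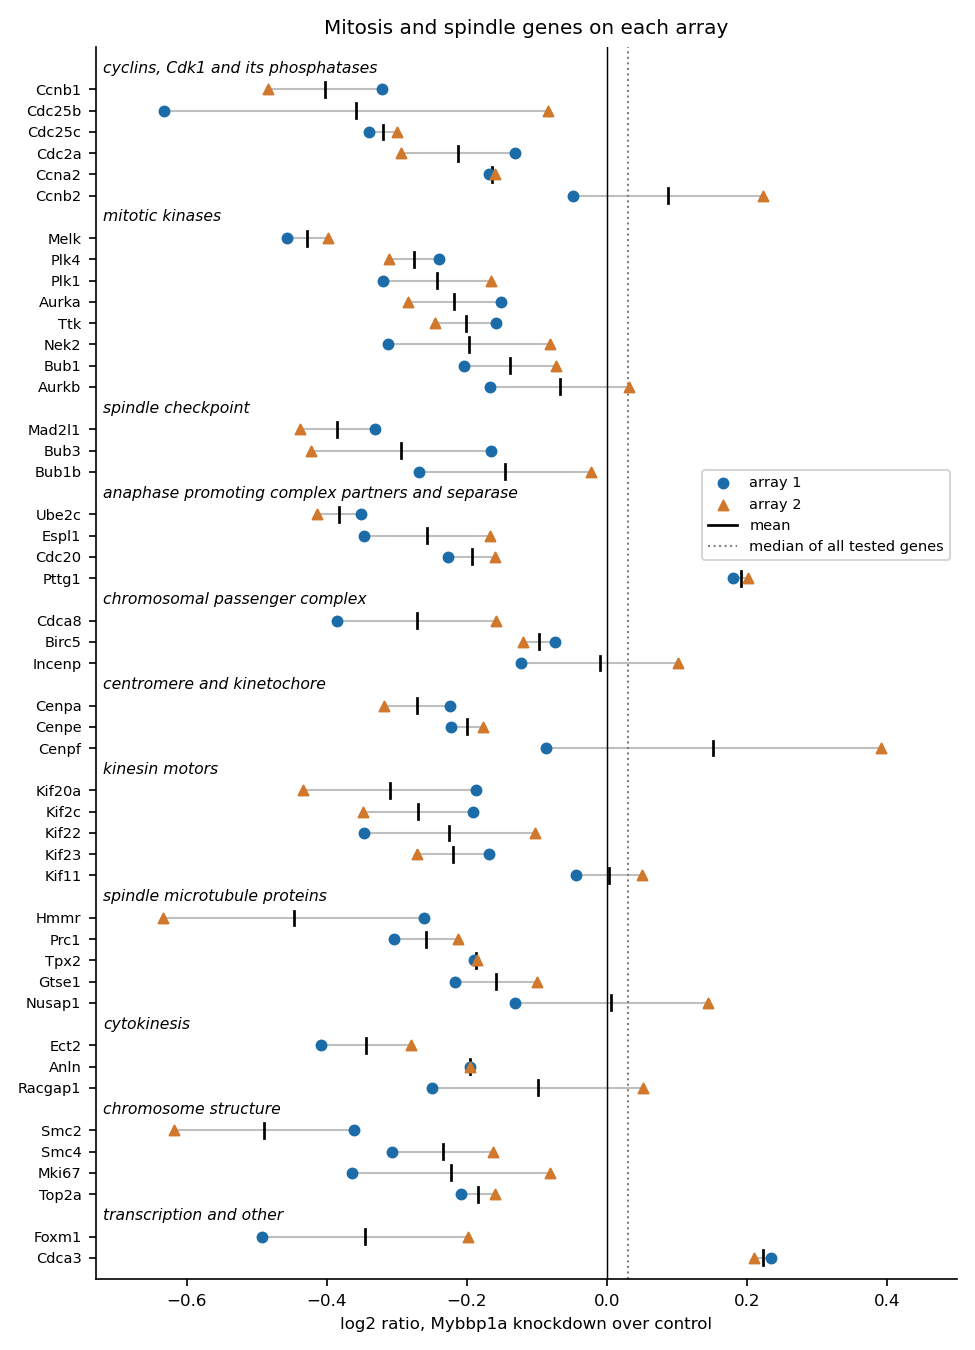
Log2 ratio of knockdown over control under loess for each of the 46 genes on array 1 (circle) and array 2 (triangle), with their mean (bar), grouped by role; genes with 2 roles are drawn once. Both symbols lie left of 0 for 37 genes (4 with median centring), right of it for Pttg1 and Cdca3 and on both sides for 7 genes, and the dotted line is the median of all tested genes (0.03).

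Of the 6 cyclins, Cdk1 and Cdc25 phosphatases, 5 were lower on both arrays, with a median of -0.27, whereas 1 was lower on both with median centring, with a median of 0.11, against 0.21 for all tested genes. Ccnb1, which encodes cyclin B1, the partner of Cdk1 at mitotic entry, had signals of 8964 and 7692 in knockdown cells, against 11206 and 10762 in control cells. Its ratios were -0.32 and -0.48 (mean -0.40 ± 0.12, SD, n = 2, limma adjusted p = 0.187). Ccnb2, which encodes the related cyclin B2, differed between the arrays, with 45812 and 48174 in knockdown cells, against 47384 and 41267 in control cells, and ratios of -0.05 and 0.22. The mean ratios of the B-type cyclins lay on opposite sides of 0, but neither gene passed the test and their difference was not tested.

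Cdc2a, the array's older name for Cdk1, the kinase that these cyclins activate, had signals of 23193 and 18485 in knockdown cells, against 25402 and 22675 in control cells. Its ratios were -0.13 and -0.29, lower on each array although the channels overlapped between arrays. Ccna2, which encodes cyclin A2, acting in S phase and G2, had -0.17 and -0.16. Cdc25c and Cdc25b encode phosphatases that remove the inhibitory phosphates from Cdk1. Cdc25c was similar on both arrays, with -0.34 and -0.30 (mean -0.32 ± 0.03, SD, n = 2; limma adjusted p = 0.198). Cdc25b had 26746 and 22433 in knockdown cells, against 41482 and 23777 in control cells, and ratios of -0.63 and -0.08. Its mean of -0.36 thus came mostly from array 1, and its SD of 0.39 was the highest among the members.

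Of the 8 mitotic kinases, 7 were lower on both arrays, with a median of -0.21, whereas 1 was with median centring, with a median of 0.13. Melk, a kinase of the AMPK-related family that is high in dividing cells, had signals of 9886 and 7493 in knockdown cells, against 13571 and 9879 in control cells. Its ratios of -0.46 and -0.40 (mean -0.43 ± 0.04, SD, n = 2) gave the lowest adjusted p among the members, 0.182 (limma), short of the threshold. Plk4, the kinase that starts centriole duplication, had -0.24 and -0.31. Plk1, which acts in centrosome maturation, spindle assembly and cytokinesis, had 24302 and 20594 in knockdown cells, against 30344 and 23096 in control cells, with ratios of -0.32 and -0.17. Both polo-like kinases were therefore lower on each array, by similar amounts.

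Aurka, the Aurora kinase of centrosomes and spindle poles, had -0.15 and -0.28. Aurkb, the Aurora kinase of the chromosomal passenger complex, had -0.17 and 0.03, so its arrays disagreed in sign. Nek2, which separates centrosomes, had -0.31 and -0.08. These 3 kinases were all below 0 on array 1 and differed more on array 2.

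All 5 spindle checkpoint genes were lower on both arrays, against 29.4% of all tested genes, with a median of -0.20. With median centring 0 were, against 12.3% of all tested genes, and the median was 0.10, against 0.21 for all tested genes. Mad2l1 encodes Mad2, the protein that binds and holds Cdc20 until kinetochores are attached. It had signals of 12555 and 11788 in knockdown cells, against 15797 and 15978 in control cells. Its ratios were -0.33 and -0.44 (mean -0.39 ± 0.08, SD, n = 2, limma adjusted p = 0.187). Bub3, which carries Bub1 and BubR1 to kinetochores and whose promoter is among those shown, had -0.17 and -0.42. Its other 2 tested probes had means of 0.06 and -0.11, the latter with -0.07 and -0.15 on the arrays, so its probes differed in sign.

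Bub1b, which encodes BubR1, a part of the inhibitor of the anaphase promoting complex, had -0.27 and -0.02. Bub1, the kinase that recruits further checkpoint proteins and is also counted among the kinases, had -0.20 and -0.07. Ttk, which encodes the checkpoint kinase Mps1 and is counted in both groups as well, had -0.16 and -0.25. Mad2l1 was the 1 checkpoint gene past 1.2-fold on both arrays.

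Of the 4 partners of the anaphase promoting complex, 3 were lower and 1 higher on both arrays, with a median of -0.22, whereas 0 were lower on both with median centring, with a median of 0.14. Ube2c, the ubiquitin-conjugating enzyme that works with the complex, had signals of 14717 and 18307 in knockdown cells, against 18778 and 24397 in control cells. Its ratios were -0.35 and -0.41 (mean -0.38 ± 0.04, SD, n = 2, limma adjusted p = 0.185). Espl1, which encodes separase, the protease that cleaves cohesin, had -0.35 and -0.17. Cdc20, the activator of the complex in mitosis, had -0.23 and -0.16. Pttg1, which encodes securin, the inhibitor of separase, was the exception, with 70235 and 69095 in knockdown cells, against 61966 and 60084 in control cells. Its ratios of 0.18 and 0.20 (mean 0.19 ± 0.01, SD, n = 2, limma adjusted p = 0.294) were close to each other.

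Of the 4 chromosomal passenger genes, 2 were lower on both arrays, with a median of -0.08, whereas 0 were with median centring, with a median of 0.34. Cdca8, which encodes borealin, the targeting subunit, had -0.39 and -0.16. Birc5, which encodes survivin, another targeting subunit, had -0.07 and -0.12. Incenp, the scaffold that activates Aurora B, had -0.12 and 0.10. With Aurkb, this group held 2 of the 7 members with opposite signs, and its median lay closest to 0 among the groups of 3 or more genes.

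Of the 3 centromere and kinetochore genes, 2 were lower on both arrays, with a median of -0.20, whereas 0 were with median centring, with a median of 0.23. Cenpa, the histone H3 variant that marks centromeres, had -0.22 and -0.32. Cenpe, a kinesin that captures microtubules at kinetochores, had -0.22 and -0.18. Cenpf, a large protein of the outer kinetochore that accumulates in G2, had signals of 17772 and 17324 in knockdown cells, against 18883 and 13210 in control cells. Its ratios of -0.09 and 0.39 disagreed more than those of any other member except Cdc25b, by the SD between arrays (0.34).

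Of the 5 kinesin motors, 4 were lower on both arrays, with a median of -0.23, whereas 0 were with median centring, with a median of 0.19. Kif20a, a motor of the central spindle and cytokinesis, had -0.19 and -0.43. Kif2c, which depolymerises microtubules at centromeres, had -0.19 and -0.35. Kif22, a chromosome-bound motor, had -0.35 and -0.10. Kif23, a subunit of the centralspindlin complex, had -0.17 and -0.27. These 4 had means between -0.31 and -0.22. Kif11, the motor that pushes spindle poles apart, had -0.04 and 0.05 with its brightest probe, and its other tested probes had means of -0.46 and -0.07, so no single direction can be given for this gene.

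Of the 5 spindle microtubule proteins, 4 were lower on both arrays, with a median of -0.19, whereas 1 was with median centring, with a median of 0.13. Hmmr, a hyaluronan receptor that also binds spindle microtubules, had signals of 1116 and 1166 in knockdown cells, against 1338 and 1810 in control cells. Its ratios of -0.26 and -0.63 (mean -0.45 ± 0.26, SD, n = 2; limma adjusted p = 0.212) were both low but far apart. Prc1, which bundles the antiparallel microtubules of the central spindle, had -0.30 and -0.21. Tpx2, the microtubule nucleation factor that activates Aurora A, had -0.19 on both arrays, and Gtse1, which stabilises microtubules, had -0.22 and -0.10. Nusap1, which binds microtubules near chromosomes, had -0.13 and 0.14.

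Of the 5 cytokinesis genes, which include Kif23 and Prc1, 4 were lower on both arrays, with a median of -0.22, whereas 0 were with median centring, with a median of 0.08. Ect2, the exchange factor that activates RhoA at the cleavage furrow, had signals of 16667 and 14123 in knockdown cells, against 22120 and 17150 in control cells. Its ratios were -0.41 and -0.28 (mean -0.34 ± 0.09, SD, n = 2, limma adjusted p = 0.198). Anln, which encodes anillin, the scaffold of the contractile ring, had -0.20 on both arrays. Racgap1, the partner of Kif23 in centralspindlin, had -0.25 and 0.05, and thus differed in sign between arrays.

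All 4 chromosome structure genes were lower on both arrays, against 29.4% of all tested genes, with a median of -0.23. With median centring 1 was, against 12.3% of all tested genes, and the median was 0.19, against 0.21 for all tested genes. Smc2, a core ATPase of both condensin complexes, had the lowest mean of all members. Its signals were 9151 and 7142 in knockdown cells, against 11757 and 10960.5 in control cells. Its ratios of -0.36 and -0.62 (mean -0.49 ± 0.18, SD, n = 2; limma adjusted p = 0.186) made it 1.40-fold lower, and it was lower with median centring too. Its partner Smc4 had -0.31 and -0.16, about as far from 0 as the group's median. Top2a, the topoisomerase that untangles sister chromatids, had 15321 and 12073 in knockdown cells, against 17708 and 13490 in control cells, with ratios of -0.21 and -0.16. Mki67, the proliferation marker that coats mitotic chromosomes, had 37616 and 35767 in knockdown cells, against 48436 and 37826 in control cells. Its ratios of -0.36 and -0.08 put most of the difference on array 1.

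Foxm1 and Cdca3 stand outside these groups. Foxm1, a transcription factor that activates genes of G2 and mitosis, had signals of 4672 and 4558 in knockdown cells, against 6572 and 5231 in control cells. Its ratios were -0.49 and -0.20 (mean -0.35 ± 0.21, SD, n = 2; limma adjusted p = 0.233), lower on both arrays but less so on array 2. Cdca3, a protein that promotes degradation of the Cdk1 inhibitor Wee1, had 37224 and 22492 in knockdown cells, against 31640 and 19436 in control cells, and ratios of 0.23 and 0.21. It was the highest member by mean ratio (0.22 ± 0.02, SD, n = 2; limma adjusted p = 0.255), but its other tested probe had a mean of -0.02.

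The members spread more widely on array 2, with an SD across genes of 0.22, than on array 1, with 0.15. On array 1, 44 members were lower, all except Pttg1 and Cdca3, and on array 2, 37 were. Across the members the ratios of the arrays correlated with Pearson's r of 0.48 and Spearman's rho of 0.39 (46 genes measured on the same slides, given as a description). The 7 members with opposite signs, Racgap1, Aurkb, Incenp, Kif11, Nusap1, Ccnb2 and Cenpf, were all below 0 on array 1 and above it on array 2.

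**Figure D4:**
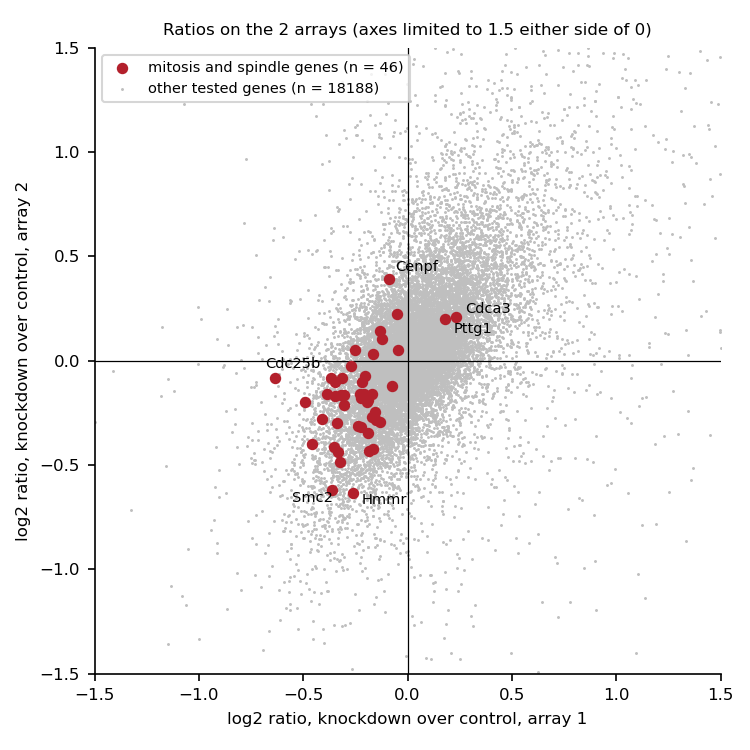
Log2 ratio of knockdown over control under loess on array 1 (horizontal) and array 2 (vertical) for the 46 mitosis and spindle genes (red) and the other tested genes (grey), on axes limited to values near 0. The lower left field holds 37 red points (4 with median centring), the upper right holds Pttg1 and Cdca3, and the upper left holds 7.

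Several genes were measured by more than 1 probe, and only the brightest entered the values above. The members had 82 probes, of which 79 were tested, and 24 genes had more than 1 tested probe. All probes of a gene had the same sign of their mean for 17 genes, lower for 15 of these under loess. Among the 33 tested probes that were not the brightest, 23 (69.7%) were lower on both arrays under loess. Their median was -0.16, nearer to 0 than the median of the brightest probes. No share over all probes that are not the brightest is given beside this count, so it cannot be read as an excess. The 4 probes of Smc2 had means of -0.49, -0.50, -0.40 and -0.74, all lower. Ccnb1 had -0.40, -0.16 and -0.15, lower with each probe but by different amounts. Cenpe had -0.20, -0.34 and -0.32, and there the brightest probe was nearest to 0.

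Probes disagreed in sign for 7 genes, namely Bub3, Cdc25b, Cdca3, Cenpa, Kif11, Racgap1 and Top2a. Cdc25b had means of -0.36, 0.15 and -0.11, and Top2a had -0.18, -0.04 and 0.07. The second probe of Cenpa had a mean of 0.0023, against -0.27 with the brightest, and that of Racgap1 had 0.03, against -0.10. Of Kif11 the brightest probe was near 0 and the next had -0.50 and -0.42 on the arrays. On build mm8, which the array files use, the brightest probe lay at chromosome 19, 37486409 to 37486468, and the other upstream of it on the plus strand, at 37452456 to 37452515. Neither position was set against an exon annotation, because the reference used here is on another build. Whether they detect different transcripts of Kif11 was not tested.

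**Figure D5:**
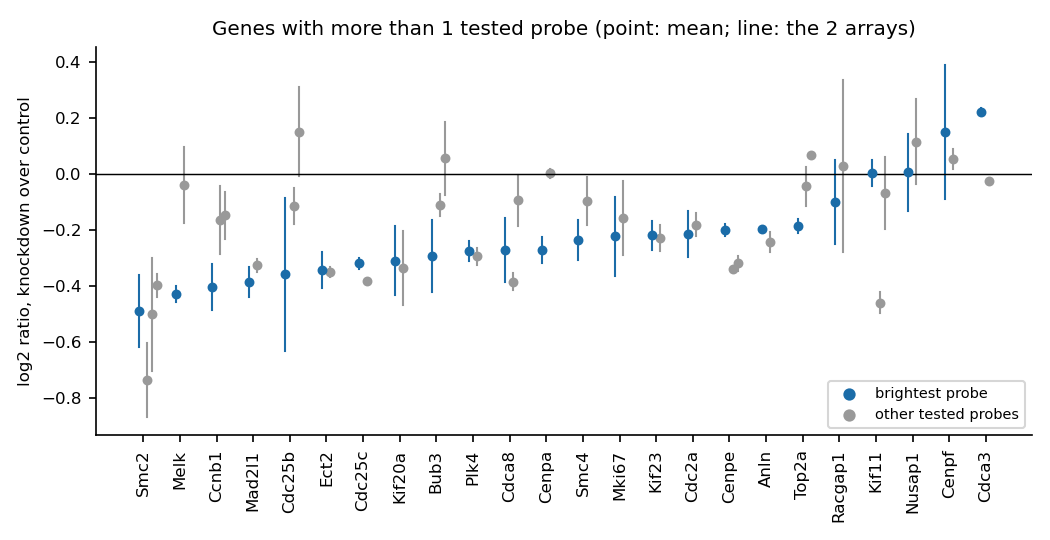
Mean log2 ratio of knockdown over control under loess (point) and the values of the 2 arrays (ends of the line) for each tested probe of the 24 genes with more than 1, ordered by the ratio of the brightest probe (blue); other probes are grey. Both Smc2 and Cdc25c lie below 0 with every probe, whereas the probes of Kif11, Cdc25b and Top2a lie on both sides of 0 (with median centring 30 of the 46 brightest probes change the sign of their mean).

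Genes of the same processes outside the 46 were read from 4 further lists, with the 3 lowest and 3 highest genes of like sign named from each. Of all tested genes, 29.4% were lower and 40.5% higher on both arrays under loess, and 12.3% were lower on both with median centring. None of their genes was called by limma's adjusted p under loess. With median centring 3 of the other mitosis genes, 5 of the anaphase promoting complex subunits and 1 of the transcription factors were called, all higher, against 17.2% of all tested genes called higher. Under loess, at an unadjusted p under 0.05, 24 of the other mitosis genes, 1 of the condensin and cohesin subunits, 0 of the anaphase promoting complex subunits and 4 of the transcription factors were lower, against 7.49% of all tested genes. Of 68 names of other mitosis genes, some of them older and newer names of 1 gene, 56 were tested and 39 (69.6%) were lower on both arrays, 2 were higher, and the median was -0.22. With median centring 12 were lower on both and the median was 0.08, against 0.21 for all tested genes. Rcc1, which loads Ran with GTP around chromosomes, had -0.47 and -1.09. Sgol2, the shugoshin that protects centromeric cohesion, had -0.55 and -0.49, and Troap, a spindle-associated protein, had -0.45 and -0.56. At the upper end, Cenpm, a centromere protein, had 0.16 and 0.29, and Cks2, a small Cdk-binding subunit, had 0.14 and 0.15. The next highest gene of like sign, the kinesin Kif15, was already below 0, with -0.07 and -0.08.

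Of 11 other subunits of condensin and cohesin, 8 were lower on both arrays and 1 higher, with a median of -0.11, whereas 1 was lower on both with median centring, with a median of 0.23. Ncapg, a subunit of condensin I, had -0.65 and -0.44, lower than either core ATPase on array 1. Ncaph2, of condensin II, had -0.40 and -0.10, and Ncapd3, also of condensin II, had 0.03 and 0.13. The cohesin subunits Stag1, Smc3 and Stag2 had -0.15 and -0.12, -0.10 and -0.02, and -0.05 and -0.0042. No difference between condensin and cohesin genes was tested.

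The list of 13 genes for the core subunits of the anaphase promoting complex and its activator Fzr1, which are not limited to mitosis, was spread around 0, with 4 lower and 4 higher on both arrays and a median of 0.03, against 0.03 for all tested genes. With median centring 12 were higher on both, with a median of 0.39, against 0.21 for all tested genes and 0.37 for those of the brightest bin. Anapc1 had -0.29 and -0.03, Anapc11 -0.14 and -0.12 and Anapc7 -0.09 and -0.16, while Fzr1, the activator outside mitosis, had 0.32 and 0.18, Anapc2 0.16 and 0.36 and Cdc16 0.25 and 0.42.

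Of 10 tested transcription factors and their partners that work through CCAAT boxes, CHR elements or E2F sites, 6 were lower on both arrays and 2 higher, with a median of -0.21, whereas 3 were lower with median centring, with a median of 0.11. Mybl2, which encodes B-Myb, the Myb protein that binds with the MuvB complex at CHR promoters, had -0.52 and -0.60. Lin9, a MuvB subunit, had -0.37 on both arrays, and Rbbp4, a histone-binding subunit of MuvB and other complexes, had -0.09 and -0.19. Of the subunits of the CCAAT-binding factor NF-Y, Nfyc had -0.32 and -0.44 and Nfyb 0.25 and 0.17. Rbl2, which encodes the pocket protein p130 of resting cells, had 0.10 and 0.24.

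Markers of cell types were read beside these values, under loess, where 29.4% of all tested genes were lower and 40.5% higher on both arrays. All 8 myoblast markers were tested and well above background, with 0 lower and 5 higher on both arrays, a median of 0.19, and summed signals of 67014 and 54125 in knockdown cells, against 69069 and 38670 in control cells. Of 14 myotube marker names 9 were tested, with 2 lower and 4 higher, a median of 0.14, and sums of 3720 and 3606 in knockdown cells, against 3009 and 3548 in control cells. Among them Myog, the transcription factor of early differentiation, had the highest mean, with 0.79 and 0.51, and the myosin light chain Myl1 the lowest, with -0.30 and -1.78. Casq2, a calcium store protein, had -0.22 and -0.26, and Myh3, embryonic myosin, was not well above background in control cells on either array. Of 10 fibroblast markers 9 were tested, with 8 higher and 0 lower on both arrays, a median of 0.81, and sums of 329321 and 393644 in knockdown cells, against 210903 and 171115 in control cells. The collagen gene Col1a1 had the highest mean of these, with 1.71 and 4.60, and Postn the lowest, with 0.42 and -0.60. With median centring the median of all tested genes was 0.21, 12.3% were lower on both arrays and 17.2% were called higher. There, all 8 myoblast markers were higher on both arrays (median 0.46, 1 called higher). Of the myotube markers, 3 were lower and 3 higher (median 0.19, 2 called higher). Of the fibroblast markers, 7 were higher (median 1.12, 6 called higher). The share of all tested genes higher on both arrays is not given for median centring, so these counts cannot be read as an excess. The part of these cell types in the ratios of the mitosis and spindle genes was not tested.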

How the data were processed

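Total RNA of knockdown and control cells was hybridised to 2 two-colour whole mouse genome arrays. Per the submitters' processing notes the software was Agilent Feature Extraction 9.5.3.1. Per the file headers, the mean and local background intensity of each spot were deposited for both dyes without background subtraction. The deposited scanner files also hold processed intensity values, the log10 of the Cy5 to Cy3 ratio and the p-value of that ratio within 1 array, per the file headers. The authors' deposited value table held log2 ratios. They matched this log10 ratio, converted to log2, to 0.001 or better in 100% of the 39068 and 38229 probes compared, and had a median of 0 on both arrays, so its scale, centring and direction were known.

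Each array had 45018 spots, 1639 of them controls, and 41174 probes. Median spot signals, before background correction, were 329 (Cy5) and 159 (Cy3) on array 1 and 449 and 184 on array 2. Signals were corrected with normexp (offset 50) and ratios normalized by loess (span 0.3) in limma 3.58.1 under R 4.3.3. Control spots had weight 0 and were left out, as were 154 and 237 spots with outlier flags. Tested probes were those well above background, on each of the arrays, in 1 channel or both. All 46 members were well above background in both channels on both arrays, and 0 were saturated. Genes go by the name in the files. Log2 ratios were tested for a difference from 0 with lmFit and eBayes, two-sided, with Benjamini-Hochberg adjustment over all 18234 genes. The number of arrays limits the precision. The limma fit was run on ratios simulated from its own spread, which cannot show how it handles dye bias or the choice of normalization. The signals printed are after normalization, and ± is the SD of the log2 ratios. The members, roles and lists were chosen with earlier results of these data known. All members are named, as are the targeted gene and the 3 lowest and 3 highest genes of like sign from each further list; other probes and genes named were chosen after their values were seen. Alternatives covered normalization, background, filter, probe rule, gene names, the source of the values and leaving out each array. Promoters came from RefSeq (GRCm38.p6), the first window listed per gene.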

Additional observations from a re-analysis of the deposited data

How the results depend on the processing

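Feature Extraction's processed signals, loess with scaling between arrays, an offset of 16, no filter on dim probes, a filter on both channels, the mean over probes and updated gene names left 37 members lower on both arrays, 0 called, and a median between -0.25 and -0.20. At least 1.2-fold lower on both arrays were 12 with processed signals and 6 to 8 with the others. The deposited value table gave values for 36 members, with 27 lower on both arrays, 9 at least 1.2-fold lower and a median of -0.24. Median centring called 3210 genes, of which 3144 were higher (17.2% of all tested genes) and 66 lower (0.362%). It called 3 members (6.52%), each higher: Ccnb2 (0.54, limma adjusted p = 0.0409), Cdca3 (0.63, limma adjusted p = 0.0379) and Pttg1 (0.69, limma adjusted p = 0.0335). It left 4 members lower on both arrays, 0 at least 1.2-fold lower, and a median of 0.15. It turned the mean of 30 members to above 0: Mki67 0.22, Top2a 0.16, Cdc2a 0.17, Ccna2 0.21, Aurka 0.18, Aurkb 0.24, Bub1 0.18, Bub1b 0.14, Bub3 0.10, Plk1 0.15, Cdc20 0.28, Cdc25b 0.0486, Cdca8 0.19, Cenpa 0.0846, Cenpe 0.23, Kif20a 0.19, Kif23 0.0828, Kif22 0.22, Tpx2 0.16, Birc5 0.47, Incenp 0.44, Nek2 0.11, Prc1 0.13, Ttk 0.0529, Espl1 0.0090, Racgap1 0.22, Ect2 0.0122, Anln 0.0835, Gtse1 0.13 and Smc4 0.24. The cause was not tested. Kif11 and Nusap1, near 0, turned to -0.0339 and -0.0367 with processed signals and with the deposited table, and to -0.00063 and -0.0037 with scaling; Kif11 turned to -0.0042 at offset 16 and -0.17 as the mean over probes. With the deposited table another probe stood for Bub3 (0.0163), Racgap1 (0.0043) and Melk (0.17), whose brightest probe had no value on both arrays there. Top2a (-0.08 with the deposited table, against -0.15 with processed signals) and Ect2 (-0.43, against -0.41) also had other values there. Whether another probe stood for Top2a and Ect2 too was not tested. Leaving out an array moved the members' median between -0.22 and -0.17, the count lower between 37 and 44, and the count at least 1.2-fold lower between 16 and 18, since only 1 array had to pass. Without array 1 the means of Aurkb (-0.07), Incenp (-0.01) and Racgap1 (-0.10) turned to above 0, and without array 2 those of Ccnb2 (0.09), Cenpf (0.15), Kif11 (0.0028) and Nusap1 (0.0064) turned to below 0. The values left were, without array 2 and without array 1 in that order, -0.17 and 0.0312 for Aurkb, -0.12 and 0.10 for Incenp, -0.25 and 0.0516 for Racgap1, -0.0487 and 0.22 for Ccnb2, -0.0875 and 0.39 for Cenpf, -0.0444 and 0.050 for Kif11, and -0.13 and 0.14 for Nusap1. The test of the ratios against 0 is already paired, because each ratio sets knockdown against control RNA within an array, which leaves 1 group. With 2 arrays, 1 dye orientation and no called member under loess, the sign of these ratios depends on the normalization.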
